A study of Homo sapiens with 4 samples.

Results

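A cleaved and polyadenylated RNA leaves its mark where it ends, and poly(A) site sequencing counts those ends on each strand. Within the 31081 poly(A) regions of DICER(ex5) cells, 620 pairs were examined in which a minus-strand region lay to the left of a plus-strand region on the same chromosome, with 1 to 2000 bases from the end of the first to the start of the second. These divergent pairs were built from 959 distinct regions (470 minus and 489 plus), or 3.09% of all regions, and their regions held 579943 of 17073064 reads (3.40%). The cells are a hypomorph for DICER, the ribonuclease that releases microRNAs from their precursors, and were derived from HCT116, an established colon cancer line. They were grown without a further treatment named in the labels. The series has a single group of 4 libraries, named here libraries 1 to 4, with 2163977 to 5713530 reads each, described as biological quadruplicates. It has no parental or control line, and no source used here says whether the line is a single clone. The table carries no gene names, so neither DICER nor any marker of the line could be checked in it. Comparisons are therefore between kinds of region and between libraries. Libraries 1 and 2 resembled each other, as did libraries 3 and 4: of the 15359 regions with at least 100 reads, 1.15% and 0.404% differed over 2-fold within these sets, against 11.0% to 16.5% for a library of one set and a library of the other. No label names a source of this split. Positions are given as deposited, on hg19.

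An RNA is cut a short way downstream of a poly(A) signal, and a poly(A) tail is added to the new end. The body of the RNA lies upstream of that end, which is to the right of a minus-strand end and to the left of a plus-strand end. In a divergent pair both bodies thus lie on the side of the partner. Known arrangements of this kind are convergent genes whose 3' ends run past each other, so that the last parts of both RNAs are antisense to each other, and short RNAs that leave a bidirectional promoter in both directions and end early. No gene or RNA start was known here, so the pairs were not assigned to these arrangements. The word divergent thus stands for the positions of the regions alone. The mirror arrangement, with the plus-strand region on the left and the same limits, is called tail-to-tail here. It gave 1611 pairs of 2242 regions and serves as the comparison. Of the 959 divergent regions, 333 (34.7%) also belonged to a tail-to-tail pair, so the sets are not separate.

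Divergent pairs were often very close. Their median gap was 492.5 bases, with quartiles of 112.75 and 1194.5, and 218 of the 620 (35.2%) had a gap of up to 200 bases. Of the tail-to-tail pairs, 217 of 1611 (13.5%) lay that close, and their median gap was 876 bases, with quartiles of 403 and 1391. Gaps of 1 to 10 bases were found in 24 divergent and 4 tail-to-tail pairs, and gaps of 11 to 50 bases in 70 and 34. Divided into 20 classes of 100 bases, the gaps of divergent pairs outnumbered those of tail-to-tail pairs in the first class (147 against 99) and were fewer in each of the other 19. Beyond 200 bases each class held 12 to 37 divergent pairs and 55 to 95 tail-to-tail pairs. Gaps are properties of the shared region list, so they have no replicates and no test was made.

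**Figure D1:**
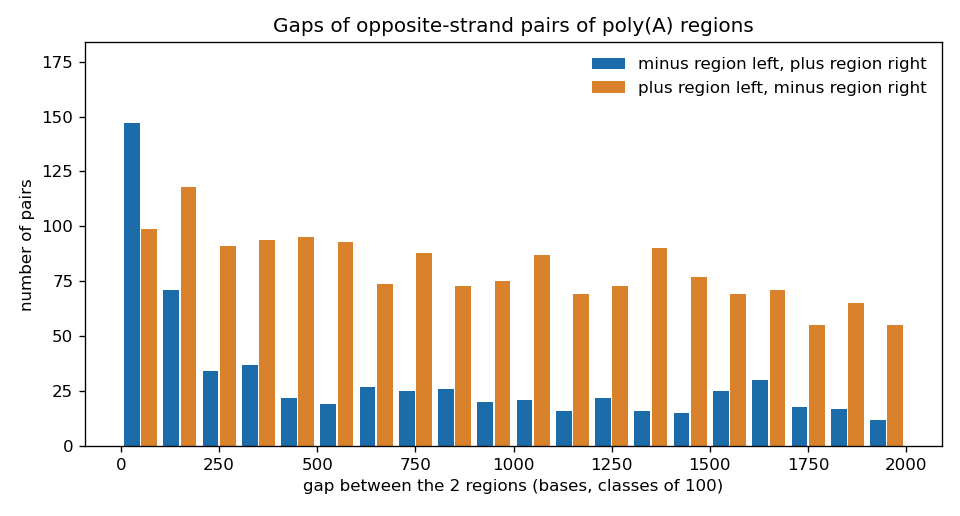
Number of pairs (vertical axis) by gap between the regions in bases (horizontal axis, classes of 100), for divergent pairs (blue) and tail-to-tail pairs (orange). The first class is the only one in which the divergent pairs (147) outnumber the tail-to-tail pairs (99).

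The limits of the rule cut through a continuous range. The shortest gaps inside were 1, 2 and 2 bases, while 171 opposite-strand pairs overlapped by 1 to 66 bases and were not members. At the far end the longest gaps inside were 1989, 1996 and 1999 bases, and the next outside were 2004, 2004 and 2024. The outer span of a divergent pair, from the minus-strand 3' end to the plus-strand 3' end, had a median of 568 bases and ran from 40 to 2070. A region of either strand lay in or reached into the gap of 276 pairs, with a median gap of 809.5 bases. The other 344 pairs (55.5%) were direct neighbours, with a median gap of 224.5 bases. Of the member regions, 101 also overlapped an opposite-strand region.

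Most of the regions belonged to a single divergent pair (764 of 959), and the other 195 were in several, up to 7. Joined through shared regions, the pairs made 367 linked groups. Of these, 235 (64.0%) were a single pair, 74 had 2 pairs, 34 had 3 and 14 had 4. The 3 largest groups, singled out after their values were seen, had 12 pairs each, from 4 minus-strand and 3 plus-strand regions. On chromosome 4 (122736638 to 122738196) the group held 4345 minus-strand and 3032 plus-strand reads, and the minus strand took 58.8% ± 0.970 (SD, n = 4). The group on chromosome 7 (27210207 to 27211843) was similarly even, with 978 and 877 reads and a minus-strand share of 52.9% ± 2.07 (SD, n = 4). That on chromosome 17 (53039268 to 53041228) was weak, with 362 and 141 reads and a share of 71.2% ± 9.03 (SD, n = 4). Another group, also on chromosome 17 (57771214 to 57772491), was 1-sided: 7 plus-strand regions held 9589 reads and 2 minus-strand regions held 85, a minus-strand share of 0.873% ± 0.245 (SD, n = 4). Pairs within such a group share regions and are not independent.

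Chromosome 17 held 99 of the 620 divergent pairs (16.0%) with 5.60% of all regions. This was 5.68 pairs per 100 regions of the chromosome, and 131 of its regions (7.52%) were members. Chromosome 16 had 3.69 pairs per 100 regions and chromosome 19 had 3.07. Chromosome 1, with the most regions, had 1.58, chromosome 11 had 0.963 and chromosome X 0.340 (3 pairs). The tail-to-tail pairs were also densest on chromosome 17, at 10.2 per 100 regions, followed by chromosome 16 at 7.39. Chromosome 18 was the only chromosome with more divergent than tail-to-tail pairs (14 against 10), and its divergent pairs came from 5 linked groups. On chromosome 17 the 99 pairs formed 42 groups, 10 of them (26 pairs) in the first 10 Mb and 3 of them (22 pairs) between 50 and 60 Mb, where 2 of the large groups above lie. The dependence of these densities on gene density was not tested.

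**Figure D2:**
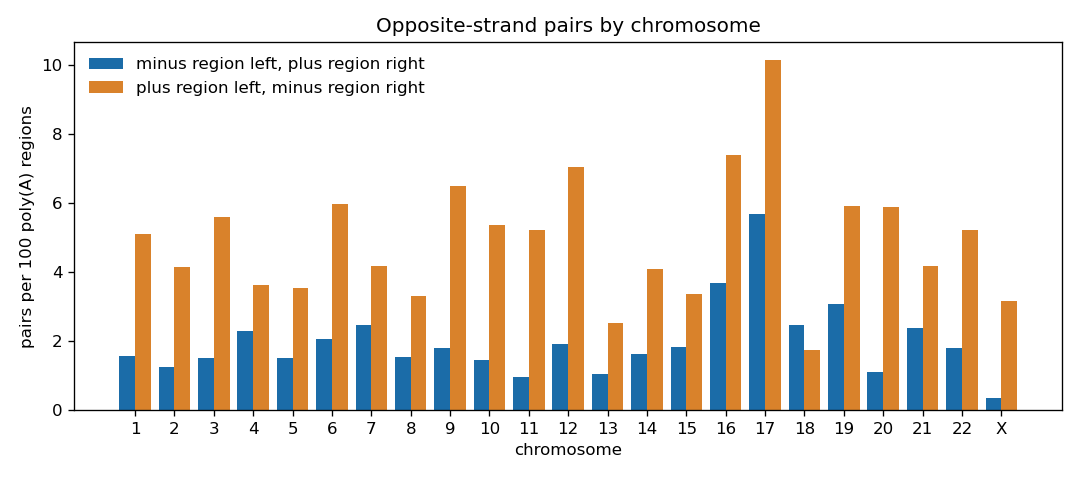
Pairs per 100 poly(A) regions of a chromosome (vertical axis) for each chromosome (horizontal axis; Y, with no pair, is left out), for divergent pairs (blue) and tail-to-tail pairs (orange). Both are highest on chromosome 17, at 5.68 and 10.2.

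The member regions had the width of ordinary poly(A) regions. Their median width was 29 bases on either strand (quartiles 20.5 and 39), against 27 for the other 30122 regions (quartiles 17 and 39) and 33 in tail-to-tail pairs. Regions of 10 bases or fewer made up 44 of the 959 members (4.59%), against 3682 of the 30122 others (12.2%). The narrow members moved between libraries. Their mean level in CPM, the reads of a region scaled by the total of its library, was 5.42, 4.55, 1.88 and 1.62 for libraries 1 to 4. The narrow regions outside the set had 7.54, 6.91, 1.24 and 1.28 CPM. Both kinds of narrow region were thus higher in libraries 1 and 2. Wider members differed much less, with 37.9, 38.4, 36.0 and 36.4 CPM in libraries 1 to 4.

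Members were somewhat stronger than other regions and weaker than tail-to-tail regions. The median level of a member was 8.06, 7.86, 7.18 and 6.78 CPM in libraries 1 to 4, or 7.47 ± 0.595 (SD, n = 4). The other regions had 6.52, 6.47, 5.08 and 5.02 CPM, or 5.77 ± 0.837 (SD, n = 4), so that every library placed the members higher. On the scale of log2(CPM + 1) the difference of medians was 0.33 ± 0.0860 (SD, n = 4), higher in 4 of 4 libraries (exact permutation of signs over libraries, two-sided, p = 0.125). With 4 libraries this is the smallest p the test can give, so it cannot pass 0.05. With members taken only from pairs whose regions were both wider than 10 bases, the difference was 0.17. With members taken only from pairs with at least 100 reads in both regions, it was 0.08. In each case the other regions met the same limit, and they included former members whose partner did not meet it. Tail-to-tail regions had a median of 13.1 ± 0.419 CPM (SD, n = 4), and members were lower in 4 of 4 libraries, by -0.74 ± 0.126 on the log2 scale (SD, n = 4; exact permutation p = 0.125, again the smallest possible). Levels come from bulk RNA, where fewer cells and less RNA per cell cannot be told apart, nor whether both RNAs of a pair came from the same cells.

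Levels were higher in close pairs, a comparison for which no test was made. The stronger region of a pair had a median of 29.4 ± 1.16 CPM at gaps of 1 to 100 bases (147 pairs), 23.9 ± 1.85 at 101 to 500 (164 pairs), 19.3 ± 1.05 at 501 to 1000 (117 pairs) and 15.0 ± 1.72 at 1001 to 2000 (192 pairs; SD, n = 4). The weaker region had 4.78 ± 0.234, 3.41 ± 0.206, 2.96 ± 0.460 and 2.89 ± 0.121 CPM in the same classes (SD, n = 4). The last 2 of these lay within each other's spread. In tail-to-tail pairs the stronger region had 65.0 ± 6.39, 41.7 ± 1.00, 38.9 ± 1.71 and 32.9 ± 1.67 CPM in these classes (SD, n = 4). The weaker tail-to-tail region had 5.48 ± 0.395, 6.47 ± 0.424, 4.99 ± 0.302 and 4.20 ± 0.164 CPM (SD, n = 4), highest in the class of 101 to 500 bases. The SDs are over libraries that read the same pairs and leave out the spread over pairs.

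One strand usually dominated. In each library the weaker strand of a divergent pair took a median of 19.0%, 18.2%, 18.2% and 17.7% of the pair's reads in libraries 1 to 4, or 18.3% ± 0.534 (SD, n = 4). It took under 10% in 32.4% ± 1.88 of pairs and 40% or more in 16.4% ± 2.08 (SD, n = 4). The same median in tail-to-tail pairs was 18.3% ± 0.712 (SD, n = 4). The difference, divergent minus tail-to-tail, was -0.07 ± 0.402 percentage points (SD, n = 4), above 0 in 1 of 4 libraries (exact permutation of signs, two-sided, p = 0.875, smallest possible 0.125). No difference in balance was detected over all pairs. The direction turned with library 1 or library 4 left out (0.0076 and 0.0017 points) and without chromosome 17 (0.71 points, exact permutation p = 0.125). Among pairs with gaps up to 500 bases the difference was -3.20 points (exact permutation p = 0.125). Both of these p are the smallest possible. By gap, the median was 17.8% ± 1.16, 17.3% ± 1.33, 19.9% ± 2.49 and 18.8% ± 0.190 in the gap classes of 1 to 100, 101 to 500, 501 to 1000 and 1001 to 2000 bases (SD, n = 4). Within each of the 4 libraries the class of 101 to 500 bases was below both classes of longer gaps; no test of this was made.

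Neither strand was favoured. With reads summed over libraries the minus strand held over 50% in 316 of 620 pairs (51.0%), and its median share by library was 50.5% ± 0.826 (SD, n = 4). It held over 50% in all 4 libraries in 239 pairs and under 50% in all 4 in 234. The remaining 147 (23.7%) were on both sides, at exactly 50% or without reads in a library. The stronger region of a pair had a median of 352 reads and a width of 32 bases, and the weaker one 57 reads and 24 bases. In tail-to-tail pairs these were 664 reads and 37 bases, and 84 reads and 28 bases. Across the 620 pairs the levels of both regions were unrelated (Pearson r = -0.06 and Spearman rho = -0.02 on log2 of the mean CPM + 1, a description without a test, since pairs share regions and libraries). Both regions had at least 100 reads in 174 pairs (28.1%), and neither did in 129 (20.8%).

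**Figure D3:**
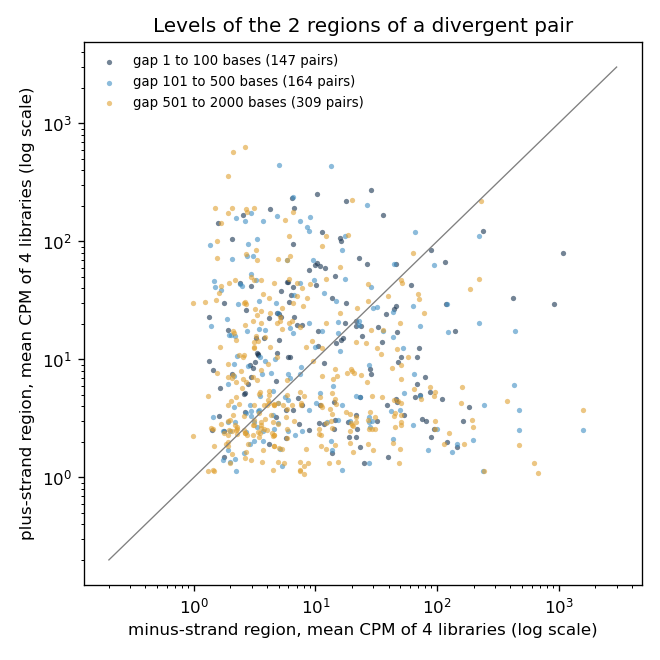
Level of the plus-strand region (vertical axis) against that of the minus-strand region (horizontal axis) of each of the 620 divergent pairs, as the mean CPM of 4 libraries on log scales, coloured by gap. The points fill both sides of the diagonal of equal levels and show no common trend (Pearson r = -0.06).

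Pairs in which both ends were strong were few. Only 9 of the 620 divergent pairs had 1000 reads or more in both regions, against 102 of the 1611 tail-to-tail pairs. Of these, an even and strong pair lay on chromosome 16, where a minus-strand region (731644 to 731689) had 1232, 498, 1276 and 922 reads in libraries 1 to 4 and a plus-strand region (732714 to 732818) had 1335, 554, 1035 and 754. The gap was 1025 bases and the minus strand took 51.4% ± 4.31 (SD, n = 4), just under 50% in libraries 1 and 2 and over it in libraries 3 and 4. On chromosome 6, regions 62 bases apart (42979954 to 42979982, minus, and 42980044 to 42980089, plus) had 4000 and 2071 reads and a share of 66.2% ± 1.56 (SD, n = 4). A pair 15 bases apart on chromosome 1 (1246962 to 1247017 and 1247032 to 1247068) had 1986 and 1150 reads and 63.6% ± 3.33 (SD, n = 4). Both of these were singled out after their values were seen.

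Among the pairs with at least 100 reads in each region, the 5 with the most reads were mostly 1-sided. The pair on chromosome 6 (160199920 to 160200042, minus, and 160200067 to 160200097, plus, gap 25) had 6562, 3126, 4612 and 3462 minus-strand reads in libraries 1 to 4 and 449, 222, 362 and 256 plus-strand reads. The minus strand took 93.2% ± 0.375 (SD, n = 4), the same in each library within 1 point, although the minus-strand level itself was 1095 ± 307 CPM (SD, n = 4). The pair on chromosome 17 (5336086 to 5336133 and 5336179 to 5336212, gap 46) had a minus-strand share of 96.9% ± 0.563, and that on chromosome 1 (1337275 to 1337346 and 1337398 to 1337432, gap 52) one of 92.8% ± 1.48 (SD, n = 4). On chromosome X (49031134 to 49031165 and 49031398 to 49031477, gap 233) the plus strand dominated, with 2113, 1013, 2523 and 1728 reads against 81, 20, 89 and 52. The minus-strand share was 2.99% ± 0.771 (SD, n = 4). The remaining one of the 5 is the even pair on chromosome 16 described above.

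The 5 closest pairs at that depth differed widely in balance, with mean minus-strand shares from 2.63% to 77.3%. On chromosome 11 the regions were 2 bases apart (64894743 to 64894786, minus, and 64894788 to 64894853, plus). The minus strand had 469, 209, 500 and 333 reads in libraries 1 to 4 and the plus strand 276, 105, 745 and 412. The minus-strand level was steady, at 89.4 ± 5.46 CPM, while the plus-strand level was 83.8 ± 39.8 (SD, n = 4), and the minus-strand share was 63.0%, 66.6%, 40.2% and 44.7%. The 95% Wilson intervals were 59.4% to 66.3%, 61.2% to 71.6%, 37.5% to 42.9% and 41.2% to 48.3%, so that libraries 1 and 2 did not overlap libraries 3 and 4. On chromosome 7 (102113533 to 102113600 and 102113603 to 102113623, gap 3) the shares were 15.7%, 17.4%, 30.0% and 29.6%. The plus-strand region there had 327, 138, 201 and 169 reads and the minus-strand one 61, 29, 86 and 71. The intervals of libraries 1 and 2 lay between 12.4% and 23.8%, and those of libraries 3 and 4 between 24.2% and 35.6%. The shares of the pairs with gaps of 4 bases had smaller SDs in points. That on chromosome 12 (48176492 to 48176513 and 48176517 to 48176541) had a minus-strand share of 77.3% ± 2.81, and that on chromosome 20 (44527380 to 44527423 and 44527427 to 44527471) one of 2.63% ± 0.847, with 4039 plus-strand reads (SD, n = 4). A share so near 0 has little room to vary in points, and the minus-strand level on chromosome 20 was 6.39 ± 2.53 CPM (SD, n = 4). The pair on chromosome 1 (44462150 to 44462181 and 44462187 to 44462212, gap 6) had 45.1% ± 7.68 (SD, n = 4). Intervals and limits for counts of 0 cover counting error only, since the sources used here do not say whether copies of one molecule were removed.

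The 5 most distant pairs at that depth had gaps of 1725 to 1999 bases. The minus strand took 88.1% ± 2.26 on chromosome 9 (35736852 to 35736881 and 35738880 to 35738889), 21.6% ± 3.94 on chromosome 15 (66624286 to 66624308 and 66626216 to 66626250) and 11.0% ± 1.57 on chromosome 11 (65485132 to 65485167 and 65487064 to 65487085; SD, n = 4). On chromosome 1 (235610502 to 235610535 and 235612260 to 235612292) it took 46.3% ± 4.91 (SD, n = 4). The SDs of these 4 shares lay between 1.57 and 4.91 points. The fifth, on chromosome 11 with a gap of 1776 bases, was the least steady of all and is described below.

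The 5 pairs closest to 50% were so in the sum of reads, and most of them were not in each library. On chromosome 19 (18545189 to 18545216 and 18545223 to 18545256, gap 7) the minus strand had 74, 33, 82 and 59 reads and the plus strand 90, 24, 84 and 46, a share of 52.2% ± 5.95 (SD, n = 4). On chromosome 17 (6547666 to 6547716 and 6547901 to 6547925, gap 185) the share was 49.6% ± 9.21 (SD, n = 4), with 129 and 127 reads. The pair on chromosome 2 (9628580 to 9628637 and 9628675 to 9628762, gap 38) had shares of 62.8% (interval 55.5% to 69.5%), 76.4% (63.7% to 85.6%), 42.2% (35.6% to 49.2%) and 34.8% (27.3% to 43.2%) for libraries 1 to 4. The minus strand was the stronger one in the first 2 libraries and the weaker one in the others. The pair 2 bases apart on chromosome 11, described above, and a pair on chromosome 19, described below, were even in the sum in the same way.

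The 5 most uneven of all 620 pairs set a very strong end against a weak one, with at most 24 reads in a library. On chromosome 6 a minus-strand region (159186764 to 159186818) had 8596, 3923, 8034 and 5896 reads, and plus-strand regions at 159187283 and 159187522 had 14, 7, 12 and 8 and 24, 9, 14 and 15 reads. The minus-strand share of these pairs was 99.8% ± 0.0183 and 99.8% ± 0.0447 (SD, n = 4). On chromosome 2 a minus-strand region (176042849 to 176042903) had 11988 reads in all, and a single plus-strand base at 176044759 had 13, 4, 0 and 0 reads in libraries 1 to 4. A count of 0 allows up to 3 reads, or 0.525 CPM in library 3 and 0.753 in library 4. The others were on chromosome 1 (153634494 to 153634553, minus, with 10479 reads, and 153636397 to 153636406, plus, with 25) and on chromosome 21 (33039039 to 33039059, minus, with 36, and 33040947 to 33041005, plus, with 9551).

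**Figure D4:**
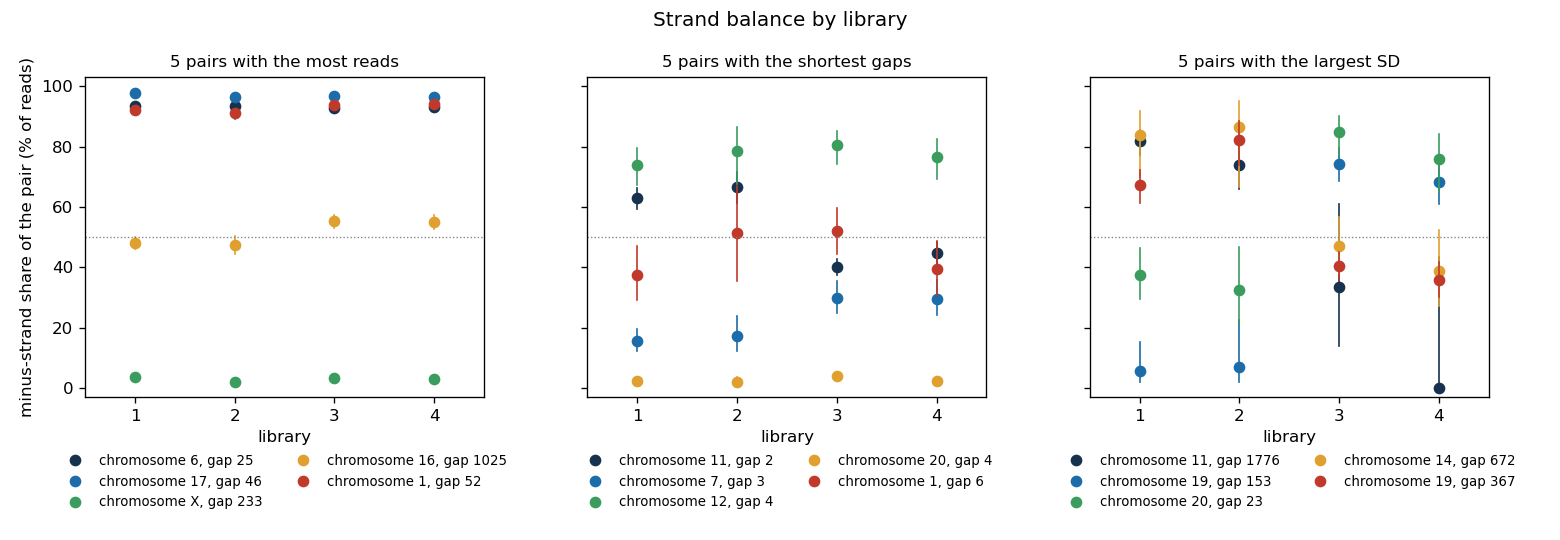
Minus-strand share of a pair's reads in percent (vertical axis) in each library (horizontal axis) for the 5 pairs with the most reads, the 5 with the shortest gaps and the 5 with the largest SD, each with at least 100 reads in both regions. Points are single libraries, bars are 95% Wilson intervals and the dotted line is 50%. In the right panel the shares of libraries 1 and 2 lie apart from those of libraries 3 and 4 for each pair.

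The balance of a pair moved between libraries by a median SD of 4.88 percentage points (620 pairs), and of 4.03 in the 174 pairs with at least 100 reads in each region. The SD was 10 points or more in 27 of these 174 (15.5%) and 20 points or more in 8 (4.60%). In the 696 tail-to-tail pairs at that depth it was 10 points or more in 96 (13.8%) and the median was 3.90. Between libraries 1 and 2, the minus-strand share of 2 of the 174 pairs differed by over 20 points, against 0.690% of all 870 opposite-strand pairs of both kinds. Between libraries 3 and 4, 1 pair did, against 0.345%. For a library of each set the counts were higher: 18 pairs (10.3%) between libraries 1 and 3, against 8.39% of all opposite-strand pairs, 17 (9.77%) between libraries 1 and 4, against 7.93%, 28 (16.1%) between libraries 2 and 3, against 12.8%, and 25 (14.4%) between libraries 2 and 4, against 12.0%. The background includes the 174 pairs themselves. Of the 696 tail-to-tail pairs alone, 0.575% differed by over 20 points between libraries 1 and 2, 7.90% between 1 and 3, 7.47% between 1 and 4, 11.9% between 2 and 3, 11.4% between 2 and 4 and 0.287% between 3 and 4. The share was higher among divergent pairs in all 6 comparisons, which share libraries, and the difference was not tested. With counts of minus and plus reads in 2 libraries compared by chi-square, where sampling alone gives a mean of 1, the mean per divergent pair was 1.20 between libraries 1 and 2 (436 pairs with expected counts of 5 or more), 1.13 between libraries 3 and 4 (532 pairs) and 5.12 to 6.81 otherwise. Tail-to-tail pairs had a mean of 1.63 for the first of these comparisons, 1.39 for the second and 8.11 to 10.7 otherwise. By this measure divergent pairs were lower in all 6 comparisons, the other direction from the share past 20 points. Read depth was not matched between the kinds of pair. Here reads are taken as independent molecules and pairs that share regions are counted separately, so these means are descriptions.

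The 5 pairs with the largest SD differed between the same sets of libraries. On chromosome 19 a minus-strand region (45912864 to 45912885) had 3, 2, 180 and 124 reads in libraries 1 to 4, while its plus-strand partner 153 bases away (45913038 to 45913053) had 50, 26, 62 and 58. Libraries 1 and 2 gave a minus-strand share of 5.66% (interval 1.94% to 15.4%) and 7.14% (1.98% to 22.6%), and libraries 3 and 4 gave 74.4% (68.5% to 79.5%) and 68.1% (61.0% to 74.5%). On chromosome 20 (61472448 to 61472470 and 61472493 to 61472520, gap 23) both strands moved, in opposite directions. The minus strand had 45, 16, 94 and 57 reads and the plus strand 75, 33, 17 and 18, and the share was 37.5% (29.4% to 46.4%), 32.7% (21.2% to 46.6%), 84.7% (76.8% to 90.2%) and 76.0% (65.2% to 84.2%). On chromosome 19 (58826137 to 58826164 and 58826531 to 58826576, gap 367) the plus strand had 91, 19, 246 and 167 reads and the minus strand 186, 88, 166 and 93, with shares of 67.1% (61.4% to 72.4%), 82.2% (73.9% to 88.3%), 40.3% (35.7% to 45.1%) and 35.8% (30.2% to 41.8%). On chromosome 14 (68117169 to 68117190 and 68117862 to 68117912, gap 672) the plus strand had 7, 3, 57 and 33 reads and the minus strand 36, 19, 51 and 21. The pair on chromosome 11 (11962700 to 11962711 and 11964487 to 11964520, gap 1776) was the one in which both regions moved together: 255, 97, 4 and 0 minus-strand reads and 57, 34, 8 and 5 plus-strand reads. Its share in library 4 rests on 5 reads, and the 0 reads of the minus strand allow up to 0.753 CPM.

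Whether both regions of a pair moved together was asked directly with the ratio of CPM + 1 between 2 libraries. Of the 959 members, 538 had at least 100 reads and were scored. Between libraries 1 and 2, 7 of the 538 (1.30%) differed over 2-fold, against 1.15% of all 15359 regions at that depth, and between libraries 3 and 4, 1 did (0.186%), against 0.404%. For libraries 1 and 3, 54 did (10.0%), against 11.7%, and between libraries 1 and 4, 50 (9.29%), against 11.0%. Between libraries 2 and 3, 82 did (15.2%), against 16.5%, and between libraries 2 and 4, 81 (15.1%), against 15.6%. Members thus changed about as often as regions at large. By direction, 31 of the 538 members were higher in library 1 and 23 in library 3, against 8.22% and 3.46% of all regions. Of libraries 1 and 4, library 1 was higher in 28 and library 4 in 22, against 7.73% and 3.26%. Between libraries 2 and 3, 38 were higher in library 2 and 44 in library 3, against 9.49% and 7.00%. Between libraries 2 and 4, 38 were higher in library 2 and 43 in library 4, against 8.89% and 6.74%. In each of these comparisons between the sets, a smaller share of members than of all regions was higher in library 1 or 2. A larger share of members was higher in library 3 or 4. Among the 7 past 2-fold between libraries 1 and 2, 6 were higher in library 1 and 1 in library 2, against 0.951% and 0.195%, and the 1 member past 2-fold between libraries 3 and 4 was higher in library 3 (0 in library 4), against 0.163% and 0.241%. Whether the directions of members differed from those of all regions was not tested. Narrow regions, whose mean level was lower in libraries 3 and 4, made up 4.59% of the 959 members and 12.2% of the other regions. Their part in these directions was not tested either.

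The regions of a pair were then counted together. Between libraries 1 and 3, of the 174 pairs with both regions scored, 149 had neither region past 2-fold, 24 had one region past it, 1 had both in the same direction and 0 had them in opposite directions. Between libraries 2 and 3 these were 132, 38, 3 and 1, and between libraries 2 and 4 they were 133, 39, 2 and 0. For libraries 1 and 4 they were 152, 21, 1 and 0. Between libraries 1 and 2, 3 pairs had one region past 2-fold, and between libraries 3 and 4 none of the 174 did. Of the 696 tail-to-tail pairs scored, the numbers with both regions past 2-fold in the same direction were 2 (0.287%) for libraries 1 and 3, 2 (0.287%) for libraries 1 and 4, 6 (0.862%) for libraries 2 and 3 and 4 (0.575%) for libraries 2 and 4. The same shares of divergent pairs were 0.575%, 0.575%, 1.72% and 1.15%, from 1 to 3 pairs each. Among the 696 tail-to-tail pairs, those with one region past 2-fold numbered 82, 78, 139 and 140 in these comparisons. Those with both regions past it in opposite directions numbered 2, 1, 3 and 4, against 0, 0, 1 and 0 of the 174 divergent pairs. The difference between the kinds of pair was not tested. The single pair with both regions past 2-fold in all 4 of the comparisons between the sets was the chromosome 11 pair above. The others were a pair on chromosome 22 (41924813 and 41924879, gap 24), up in library 3 over library 2 by 1.02 on the minus strand and 3.37 on the plus strand on the log2 scale, one on chromosome 9 (34252369 and 34252418), down by 1.11 and 1.14 likewise, and the chromosome 20 pair above, which moved in opposite directions. Averaged over the 6 comparisons, 0.67% of pairs moved together past 2-fold. Without library 1, 2, 3 or 4 the average was 0.55%, 0%, 0.28% or 0.25%, and the chromosome 11 pair falls under 100 plus-strand reads whenever a library is left out.

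Across the 620 pairs, the log2 ratios of the minus-strand and plus-strand regions were nearly unrelated. Pearson's r was 0.01 for libraries 1 and 2, 0.11 for libraries 1 and 3, 0.10 for libraries 1 and 4, 0.08 for libraries 2 and 3, 0.07 for libraries 2 and 4 and 0.06 for libraries 3 and 4. Spearman's rho ran from 0.0067 to 0.0352. In the 174 deeper pairs r ran from 0.02 to 0.12 and rho from -0.07 to 0.0069, and in the 1611 tail-to-tail pairs r ran from -0.0029 to 0.05. These values describe pairs that share regions, library and depth, and no p is given.

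**Figure D5:**
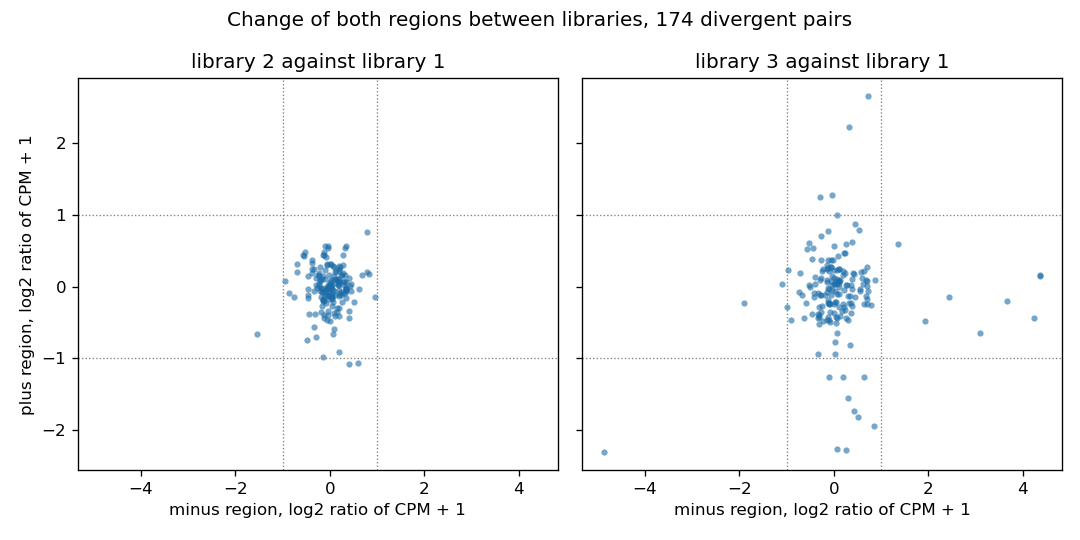
Log2 ratio of CPM + 1 of the plus-strand region (vertical axis) against that of the minus-strand region (horizontal axis) for the 174 divergent pairs with at least 100 reads in both regions, for library 2 against 1 (left) and library 3 against 1 (right). Dotted lines mark 2-fold. Points past 2-fold are so along one axis, except for 1 pair at the lower left of the right panel.

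The member regions that differed most between libraries 1 and 3 were taken as well, 5 in each direction, after their values were seen. Higher in library 3, besides the chromosome 19 region above, was a minus-strand region on chromosome 2 (170668252 to 170668299) with 11, 3, 330 and 178 reads in libraries 1 to 4. Its plus-strand partner 249 bases away was strong and changed little, with 1128, 592, 908 and 627 reads. On chromosome 4 a minus-strand region (57897232 to 57897263) had 0, 0, 67 and 59 reads, and its partner 43 bases away had 1104, 422, 1053 and 729. The 0 reads allow up to 0.576 CPM in library 1 and 1.39 in library 2, against 11.7 and 14.8 CPM in libraries 3 and 4. On chromosome 7 (130146075 to 130146093) a minus-strand region had 2, 0, 62 and 39 reads beside a partner with 247, 94, 170 and 122. In these 3 pairs the minus-strand end had 0 to 11 reads in libraries 1 and 2, next to a plus-strand end with 94 reads or more in each library. The fifth was the plus-strand region of the chromosome 22 pair above, with 19, 4, 162 and 98 reads. Higher in library 1, besides the chromosome 11 region, was a minus-strand region on chromosome 5 (134262339 to 134262376), with 1776, 471, 62 and 44 reads and a partner of 19, 5, 4 and 4. On chromosome 1 (45977009 to 45977037) a minus-strand region had 140, 63, 7 and 5 reads, while its partner had 4, 2, 16 and 12. On chromosome 21 (33040808 to 33040842) a plus-strand region had 153, 79, 14 and 6, and its partner 9, 4, 13 and 10. On chromosome 17 a plus-strand region of 2 bases (10765658 to 10765659) had 134, 38, 1 and 0 reads, and its partner of 9 bases had 19, 12, 1 and 0. Both of these are narrow regions, whose mean level was lower in libraries 3 and 4, and the part of region width in these changes was not tested.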

How the data were processed

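Poly(A)+ RNA of 4 libraries of 1 cell line was fragmented, and cDNA was primed with an anchored oligo(dT) primer, per the labels' protocols. Such primers can also start on A-rich stretches within a transcript, and no hg19 sequence or annotation was used here to mark them, to name genes or to print sequences. The authors deposited counts without normalization, per the file headers and values, 1 for each region in each library. Bowtie2 2.2.5 and hg19 are listed in the submitters' processing notes. How reads were joined into regions was not given in the sources used here. Positions are printed as deposited, and widths are end minus start plus 1. All opposite-strand regions with gaps of 1 to 2000 bases were paired (Python 3.11.15, pandas 2.3.3). The pairing and the comparison of strand shares were tested on simulated data.

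Counts were scaled to CPM of the library total, with 1 CPM added before log2. Ratios between 2 libraries were called past 2-fold, or past 20 points of strand share, where regions had at least 100 reads. These compare single libraries and have no test. Differences between kinds of region used an exact permutation of signs over the 4 libraries, whose p-values measure only the spread between these libraries, which may be technical. Intervals are 95% Wilson intervals. TMM factors came from edgeR 4.0.16. Members, lists and tests were chosen with earlier results of these data known. Named pairs were, with at least 100 reads in both regions, the 5 with most reads, shortest gap, longest gap, share closest to 50% and largest SD, and, of all pairs, the 5 most uneven.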

Additional observations from a re-analysis of the deposited data

Results flagged for a closer look

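Each value over the 4 libraries was examined for a library far from the other 3. Of 56 such values, 1 stood apart, where chance gives about 1 in 20. It was the difference in the median weaker-strand share between divergent and tail-to-tail pairs, which was 0.53 percentage points in library 2, the library with the fewest reads, and between -0.29 and -0.24 points in the other 3.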

How the results depend on the processing

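Samples could not be paired between groups because the series has a single group. The exact permutation tests paired the kinds of region within each library. Of 157 recomputed summary values, 31 moved and 6 reversed. The member level stayed above that of other regions (log2 0.08 to 0.75) and below that of tail-to-tail regions (-1.21 to -0.54) under each of 16 alternatives. The values 0.75 and -1.21 came from the strongest pair of each linked group, picked by reads in both kinds of pair. Where an alternative dropped pairs, their regions that still met its limits counted as other regions. The alternatives are thus no independent support for the differences in level.

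The difference in weaker-strand share from tail-to-tail pairs became 0.14 points with gaps up to 5000 bases, 0.19 with regions wider than 10 bases, 0.71 without chromosome 17 and 1.67 without regions in both kinds of pair. It was -3.20 with gaps up to 500 bases, -2.07 with the strongest pair of each linked group and -0.80 with direct neighbours (exact permutation p = 0.125 for each, the smallest possible), and ran from -0.27 to 0.0076 with a library left out. With gaps up to 500 bases there were 311 pairs, with a median gap of 113, a weaker-strand share of 17.2%, 34.3% of pairs under 10%, a member level of 9.61 CPM, a median SD of the share of 4.32 and a mean r of -0.0024. Gaps up to 1000 bases gave a median gap of 196.5, a level of 8.55 CPM and a mean r of 0.0281, against 0.07 as reported. Gaps up to 5000 bases gave 998 pairs, a median gap of 1372.5 and a level of 6.50 CPM. With at least 100 reads in both regions there were 174 pairs, with a median gap of 191.5, a weaker-strand share of 24.5%, 16.8% under 10%, 21.6 CPM and a median SD of 4.03. Direct neighbours gave 344 pairs and a median gap of 224.5. Thinned to 2163977 reads per library, the weaker-strand share was 17.6% and the median SD 5.70. With a library left out the median SD ran from 4.07 to 4.93. The strongest pair of each linked group, an alternative added after seeing the data like the removal of chromosome 17 and of shared regions, gave 367 pairs, a median gap of 362, a share of 16.9%, 36.4% under 10%, 10.3 CPM and a median SD of 4.18. Without chromosome 17 the share was 18.9%. Some of these shifts follow from the settings: the gap limit sets the range of the median gap, and a choice by reads favours stronger regions. The source of the other shifts was not tested.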
